A study of Mus musculus with 8 samples.

Results

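The genes described here are 31 transcription factors that mark or specify neuron subtypes of the hindbrain and spinal cord, taken by name from a table of RNA-seq counts over 32567 mouse genes. All 31 names were found. They were read in 4 groups: 8 motor neuron factors, 12 ventral interneuron factors, 7 dorsal interneuron factors and 4 cranial and sensory factors.

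The study sequenced RNA from mouse embryonic stem cells (ESC) and from their derivatives after differentiation with retinoic acid (RA-DIFF), in 2 lines of cells: wild type, and homozygous Hdh ex4/5, which lacks functional huntingtin and is called Htt-null here. The number of clones behind each line is not given in the sources used here. Feeder cells were withdrawn before embryoid bodies were formed, and whether the ESC sequenced as such had been on feeders is not given in the sources used here. RA-DIFF cells had been grown as embryoid bodies for 8 days with 5 µM retinoic acid from day 4, and were collected 2 h after plating. There is 1 library for each of the 4 conditions, which leaves every difference below without a replicate check, and no p-value is given.

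Neurons of the hindbrain and spinal cord arise from progenitors arranged from ventral to dorsal, and each postmitotic class switches on its own combination of homeodomain, LIM, paired, GATA and forkhead factors. These factors select transmitter, axon route and target, and most of them work as pairs of close relatives within the same class. Retinoic acid, which the somites supply to the caudal neural tube, is the signal commonly used to steer embryoid bodies towards hindbrain and spinal fates. Many of the same factors also act outside the nervous system, in heart, kidney, blood or neural crest.

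Levels are given in CPM, reads of a gene scaled to the library's total, after correction for library composition by TMM, with totals of 63617410 to 110569127 counts per library. Where no read was counted, up to 3 could have been missed by sampling, which corresponds to 0.0268 to 0.0460 CPM. A gene was called higher or lower when its log2 ratio of CPM exceeded 0.75 in size and its average log2 CPM, taken across all 4 libraries, exceeded 0, which 15492 genes of the table and 26 of the 31 factors reached. The 5 factors under that level were Isl2, Mnx1, Lhx3, Lhx4 and Sim1. Intervals are 95% intervals of the ratio and cover counting error of reads alone, without any spread between replicates. PCR copies of a molecule are counted as separate reads, which can make the intervals too narrow.

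The targeted gene went against its label in RA-DIFF. Htt stood at 166 CPM in wild-type ESC and 111 CPM in Htt-null ESC, but in RA-DIFF at 73.3 CPM under the wild-type label and 98.7 CPM under the Htt-null label. The RA-DIFF libraries, and the RA comparisons made with them, are therefore named WT-labelled and null-labelled throughout, and a difference between them keeps its size and takes the opposite sign if the labels are exchanged. The values per condition in the study's supplement matched the RA-DIFF columns with the labels exchanged, while the labels of the deposited table were kept here. As for the cells themselves, 9 of 10 neuron markers were called higher in RA-DIFF than in ESC in the cells of either label and all 4 pluripotent markers lower, while the neuron marker Stmn2 was called lower in null-labelled cells.

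The 2 RA-DIFF libraries also differed in their makeup. Between them, 8 of the 10 neuron markers were lower in the null-labelled library, the median log2 ratio being -1.25, with a summed level of 1321 CPM against 2857 CPM. All 6 fibroblast markers were higher there, with a median of 2.05 and 2058 CPM against 539 CPM in sum. All 4 pluripotent markers were called lower there, with a median of -2.96 and 5.16 CPM against 37.8 CPM in sum. The part of these shifts in the results below was not tested. In bulk RNA, fewer cells of a type and less RNA of a gene per cell cannot be told apart.

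The RA response of a factor is given as its log2 ratio of RA-DIFF over ESC. RA-differentiation was accompanied by higher levels of most of the factors. The comparison is of RA-DIFF with ESC and covers the whole protocol, since no cells differentiated without retinoic acid were analysed here. In WT-labelled cells, 23 of the 31 were called higher in RA-DIFF than in ESC and 1 lower, while 34.0% of all tested genes were called higher and 26.2% lower. In null-labelled cells, 17 were called higher and 5 lower, against 34.4% and 24.9% of all tested genes. Of the 23 and the 17, 15 and 13 were under 1 CPM in both ESC libraries and passed the expression limit, an average over all 4 libraries, through RA-DIFF, where they are high, so nothing is read from these numbers against the shares. The median log2 ratio over the factors was 3.26 in WT-labelled cells and 2.11 in null-labelled cells, and over all tested genes it was 0.12 and 0.17. The factor medians include the 5 factors under the expression limit and those that passed it through RA-DIFF. They too are not read against the medians of all tested genes. In the cells of both labels 17 factors were called higher and 1, Foxd3, lower.

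**Figure D1:**
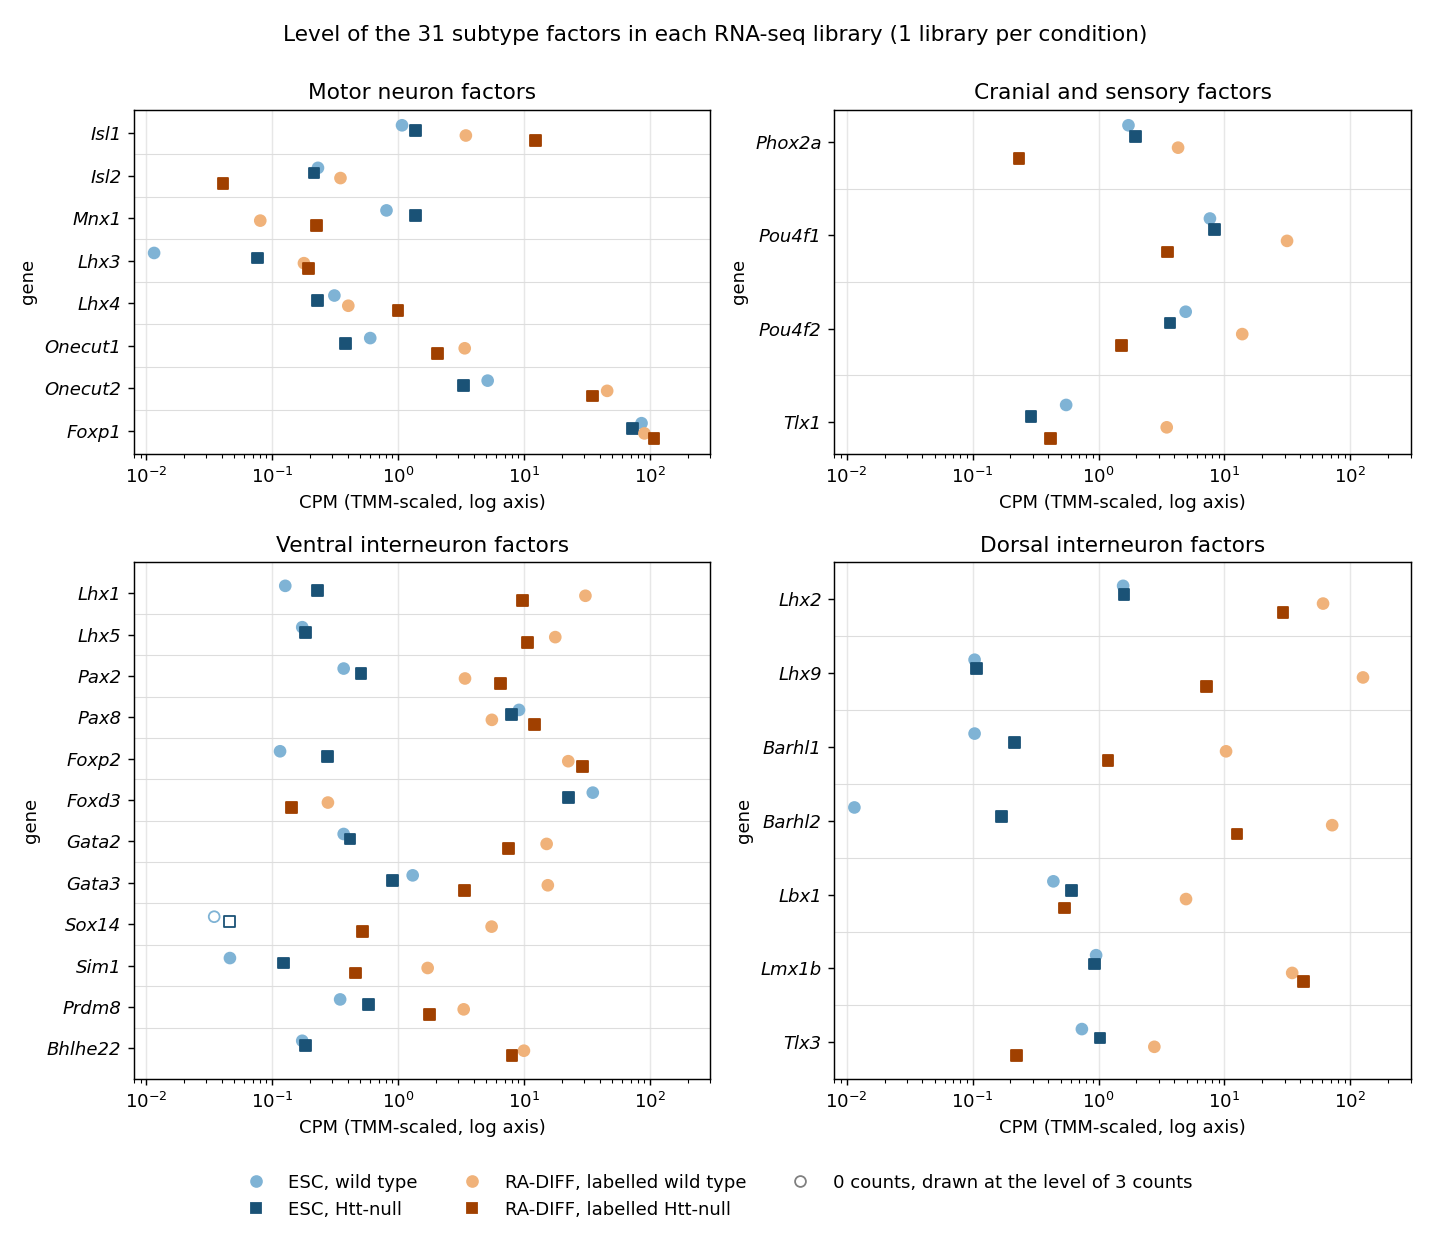
Level of each of the 31 factors in the 4 RNA-seq libraries, in TMM-scaled CPM on a log axis, with circles for wild type, squares for Htt-null, blue for ESC and orange or brown for RA-DIFF; open symbols are counts of 0 drawn at the level of 3 counts. Most dorsal and ventral interneuron factors sit far to the right of their ESC levels in RA-DIFF, and Phox2a, Pou4f1, Pou4f2 and Tlx3 lie above their ESC levels in the WT-labelled library and below them in the null-labelled one.

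More factors were called between genotypes in RA-DIFF than in ESC. In ESC, 5 of the 31 factors were called higher in the Htt-null library and 1 lower, where 5.14% of all tested genes were called higher and 3.51% lower. These 6 factors were under 1 CPM in both ESC libraries and passed the expression limit through RA-DIFF, so nothing is read from their number against that share. The median log2 ratio over the factors was 0.10, and over all tested genes -0.04. Between the RA-DIFF libraries, 3 factors were called higher and 16 lower in the null-labelled one, where 11.9% of all tested genes were called higher and 9.16% lower. Of the 16, Sox14, Lbx1 and Tlx1 were under 1 CPM in the other 3 libraries and passed the limit through the WT-labelled RA-DIFF library, and Foxd3 passed through ESC alone, so this number too is not read against the share. In an exact test at a dispersion of 0.1, a preset stand-in for replicate spread, 12 of the 16 kept their calls. Foxd3, Gata2, Prdm8 and Lhx2 lost theirs, Foxd3 already at 0.01. The median over the factors was -1.02, and over all tested genes -0.01. At both stages the factor medians include factors under the expression limit, which those of all tested genes leave out, so they are not compared either. The RA and genotype comparisons share libraries, so each is given with its own values and none stands as support for another.

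The motor neuron group was low at its core. Mnx1, the homeodomain factor that holds motor neuron identity, was measured at 0.807 CPM in wild-type ESC, 1.38 CPM in Htt-null ESC, 0.0803 CPM in the WT-labelled RA-DIFF library and 0.223 CPM in the null-labelled one. It was highest in ESC and rested on 9 and 22 counts in RA-DIFF. Lhx3, which acts with Isl1 in the complex that starts the motor neuron programme, had 1, 5, 20 and 19 counts in the same order, and its relative Lhx4 had 27, 15, 45 and 98. Isl2, a LIM factor of postmitotic motor neurons, had 20, 14, 39 and 4 counts. None of these 4 factors reached the expression limit, and no call was made for them.

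Isl1, the LIM factor of newborn motor neurons that is also used by sensory neurons, heart and pancreas, was the 1 motor neuron factor called between the RA-DIFF libraries among the 4 above the expression limit. It stood at 1.07 CPM in wild-type ESC, 1.36 CPM in Htt-null ESC, 3.44 CPM in the WT-labelled RA-DIFF library and 12.4 CPM in the null-labelled one. Both RA-DIFF values lay above both ESC values, and the null-labelled library was the highest. The RA response was 1.68 on the log2 scale in WT-labelled cells (interval 1.35 to 2.03) and 3.18 in null-labelled cells (2.87 to 3.51), and the RA-DIFF libraries differed by 1.84 (1.68 to 2.01), or 3.59-fold. In counts the 2 relatives moved apart, with Isl1 at 386 and 1218 and Isl2 at 39 and 4.

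Markers of the other tissues that use Isl1 or Mnx1 were read beside them. Of the 4 heart markers, 1 was above the expression limit and none was called between the RA-DIFF libraries, with 1.41 CPM in sum in the WT-labelled library and 1.59 CPM in the null-labelled one. Of the 5 pancreas and gut markers 3 were above the limit: Foxa2 was higher in the null-labelled library by 2.70 on the log2 scale, Neurod1 fell by 1.97 and Sox17 had a log2 ratio of 0.50, while Pdx1 had 0 counts in both libraries. Foxa2 also marks the floor plate of the neural tube.

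The remaining motor neuron factors are broader in use. Onecut1, a cut-homeodomain factor that acts upstream of Isl1 in motor neurons, had 52 and 25 counts in wild-type and Htt-null ESC and 378 and 201 in the WT-labelled and null-labelled RA-DIFF libraries. Onecut2, its closest relative, had 5.13, 3.30, 45.6 and 35.0 CPM in the same order. Both were higher in RA-DIFF in the cells of either label, with RA log2 ratios of 2.49 and 2.41 for Onecut1 and 3.15 and 3.41 for Onecut2. Between the genotypes they stayed within the limit at both stages, with -0.65 and -0.72 for Onecut1 in ESC and RA-DIFF and -0.64 and -0.38 for Onecut2. Foxp1, a forkhead factor of limb-innervating motor neurons that is expressed in many cell types, was at 72.8 to 107 CPM in the 4 libraries and was within the limit in each comparison.

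Most ventral interneuron factors were low in ESC and rose with RA. Of the 12, 11 were above the expression limit, and 9 of these were called higher in RA-DIFF in the cells of each label. All of the 9 except Gata3 were under 1 CPM in both ESC libraries and passed the limit through RA-DIFF. Their number is therefore not read against the 34.0% and 34.4% of all tested genes. In the null-labelled RA-DIFF library 2 were called higher and 6 lower than in the WT-labelled one, and the median log2 ratio over the 12 was -0.93. Of the 6, Sox14 passed the limit through the WT-labelled RA-DIFF library and Foxd3 through ESC. These numbers too are not read against the 11.9% and 9.16% of all tested genes. Lhx1 and Lhx5 are LIM factors of inhibitory interneurons. Lhx1 stood at 0.127, 0.230, 30.6 and 9.65 CPM in wild-type ESC, Htt-null ESC and the WT-labelled and null-labelled RA-DIFF libraries. It was far higher in RA-DIFF than in ESC, and higher in the WT-labelled RA-DIFF library, with RA responses of 7.92 and 5.39 on the log2 scale and a difference between the RA-DIFF libraries of -1.67 (interval -1.77 to -1.56). Lhx5 stood at 0.173, 0.184, 17.7 and 10.6 CPM. Its RA responses were 6.67 and 5.84, and its difference of -0.74 between the RA-DIFF libraries was just inside the limit.

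Foxp2, a forkhead factor of V1 inhibitory neurons, stood at 0.115 and 0.276 CPM in ESC and at 22.4 and 29.0 CPM in the WT-labelled and null-labelled RA-DIFF libraries. The RA-DIFF values were within 0.37 of each other on the log2 scale. Bhlhe22, a bHLH repressor of interneurons, behaved alike, with 0.173 and 0.184 CPM in ESC and 9.96 and 8.01 CPM in RA-DIFF, a log2 ratio of -0.31. Its partner Prdm8 stood at 0.346 and 0.583 CPM in ESC and 3.31 and 1.77 CPM in RA-DIFF. Prdm8 was called lower between the RA-DIFF libraries, with -0.91, though not at a dispersion of 0.1, and higher in Htt-null ESC, with 0.75 on 30 and 38 counts.

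Pax2 and Pax8, paired-box factors of inhibitory interneurons that are also made in the kidney and ear, were the other factors besides Isl1 that were called higher in the null-labelled RA-DIFF library. Pax2 stood at 0.369 and 0.506 CPM in ESC and at 3.39 and 6.51 CPM in the WT-labelled and null-labelled RA-DIFF libraries, a log2 difference of 0.94 (interval 0.76 to 1.13). Pax8 stood at 9.10 and 7.96 CPM in ESC and at 5.54 and 12.1 CPM in RA-DIFF, a difference of 1.13 (0.98 to 1.27). Pax2 rose with RA in the cells of both labels, by 3.20 and 3.69, whereas Pax8 was within the limit in each, at -0.72 and 0.60. At a dispersion of 0.1, Isl1 kept its call between the RA-DIFF libraries and Pax2 and Pax8 lost theirs. Of 6 kidney and ear markers 3 were above the expression limit, and all 3 were also higher in the null-labelled library: Osr1 by 2.96, Dlx5 by 1.81 and Wt1 by 0.97. The kidney gene Cdh16 had 0 and 1 counts in the WT-labelled and null-labelled libraries.

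The V2b factors Gata2, Gata3 and Sox14 went the other way. Gata2 stood at 0.369 and 0.414 CPM in ESC and at 15.1 and 7.45 CPM in the WT-labelled and null-labelled RA-DIFF libraries, a log2 difference of -1.02 between the latter, a call that was lost at a dispersion of 0.1. Gata3 had 113, 59, 1727 and 332 counts in the same order, a difference of -2.19 (interval -2.37 to -2.02). Sox14, an SRY-box factor of these neurons, had no count in either ESC library, 618 counts in the WT-labelled RA-DIFF library and 51 in the null-labelled one. It was 10.6-fold lower in the latter, and at least 159-fold and at least 11.3-fold higher in RA-DIFF than the 3 counts that a 0 allows in each ESC library.

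Both GATA factors are blood genes as well. Tal1, a partner of both in blood progenitors and in V2b neurons, had 2016 counts in the WT-labelled RA-DIFF library and 232 in the null-labelled one, a log2 ratio of -2.93. The blood markers Gata1, Hbb-y and Hba-x had 0 to 9 counts in these libraries, and Klf1 had 51 and 19. Of the 9 blood and vessel markers 4 were above the expression limit, with Kdr and Runx1 higher in the null-labelled library, by 2.00 and 1.36, and Tal1 and Pecam1 lower.

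Foxd3, a forkhead factor of V1 neurons and neural crest that also acts in pluripotent cells, was the factor called lower with RA in the cells of both labels. Mnx1, for which no call was made, had RA log2 ratios of -3.33 and -2.63. Foxd3 stood at 35.1 CPM in wild-type ESC, 22.5 CPM in Htt-null ESC, 0.277 CPM in the WT-labelled RA-DIFF library and 0.142 CPM in the null-labelled one. Its RA log2 ratios were -6.99 and -7.31, so that it was 127-fold and 158-fold lower in RA-DIFF. Its lower call between the RA-DIFF libraries, with -0.96, rested on 31 and 14 counts and was lost at a dispersion of 0.01. The pluripotent markers Pou5f1, Nanog, Esrrb and Zfp42 summed to 2916 and 2903 CPM in ESC and to 37.8 and 5.16 CPM in RA-DIFF in the same order. Of the 4 neural crest markers 3 were above the limit, with Ets1 higher by 1.39 in the null-labelled RA-DIFF library, Tfap2a lower with -1.90 and Erbb3 at -0.24. Sim1, the V3 factor, had 4, 8, 192 and 45 counts and was under the expression limit.

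The dorsal interneuron factors were low in ESC and all of them were above the expression limit. The 7 genes summed to 3.92 and 4.66 CPM in ESC, 311 CPM in the WT-labelled RA-DIFF library and 93.3 CPM in the null-labelled one. With RA, 7 of 7 were called higher in WT-labelled cells and 5 of 7 in null-labelled cells, beside 34.0% and 34.4% of all tested genes. Between the RA-DIFF libraries 6 of 7 were called lower in the null-labelled one, beside 9.16% of all tested genes. The median log2 ratio was -3.12. Lhx9, Barhl1, Barhl2, Lbx1 and Lmx1b were under 1 CPM in both ESC libraries and passed the limit through RA-DIFF, Lbx1 through the WT-labelled library alone. The numbers are therefore not read against these shares.

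Lhx9 and Lhx2 are LIM factors of the dI1 commissural neurons at the dorsal edge of the cord. Lhx9 (chromosome 1, 138825186 to 138848577 on the minus strand of GRCm38) had 9 counts in wild-type ESC, 7 in Htt-null ESC, 14106 in the WT-labelled RA-DIFF library and 709 in the null-labelled one. It was near the floor in both ESC libraries and 17.5-fold lower in the null-labelled RA-DIFF library, a log2 ratio of -4.13 (interval -4.24 to -4.02). Its RA responses were 10.24 and 6.07. Lhx2, which is also a forebrain and eye factor, stood at 1.57 and 1.59 CPM in ESC and 60.7 and 29.2 CPM in RA-DIFF. It differed by -1.05 between the RA-DIFF libraries, a call that was lost at a dispersion of 0.1. Per kb of exon, Lhx2 exceeded Lhx9 by 1.04-fold in the WT-labelled library and by 8.76-fold in the null-labelled one.

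Barhl1 and Barhl2 are Bar-class homeodomain factors that lie downstream of Atoh1 in the same dI1 neurons. Barhl2 (chromosome 5, 106452523 to 106458166, minus strand) had 1, 11, 8030 and 1240 counts in the order given above. Its RA-DIFF levels were 71.7 and 12.6 CPM, and it was lower by 5.69-fold in the null-labelled library, a log2 ratio of -2.51 (interval -2.60 to -2.42). Against the single count in wild-type ESC, the RA response of 12.60 has an interval of 10.12 to 17.91. Barhl1 had 9, 14, 1154 and 117 counts and differed by -3.12 between the RA-DIFF libraries. Per kb, Barhl2 exceeded Barhl1 by 11.7-fold and 17.9-fold in the WT-labelled and null-labelled RA-DIFF libraries.

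Tlx3, the homeodomain factor that selects excitatory over inhibitory fate in dI3 and dI5 neurons, stood at 0.738 and 1.03 CPM in ESC and at 2.78 and 0.223 CPM in the WT-labelled and null-labelled RA-DIFF libraries. It thus lay above both ESC libraries in one RA-DIFF library and below both in the other. Its RA log2 ratios were 1.91 (interval 1.52 to 2.32) and -2.20 (-2.97 to -1.49), and the RA-DIFF libraries differed by -3.63. Lbx1, which marks the dI4 to dI6 classes, stood at 0.438 and 0.613 CPM in ESC and at 4.95 and 0.538 CPM in RA-DIFF. It rose by 3.50 in WT-labelled cells, had a ratio of -0.19 in null-labelled cells, and differed by -3.20 between the RA-DIFF libraries.

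Lmx1b, a LIM factor of dI5 neurons that also acts in serotonergic neurons, roof plate and limb mesenchyme, was the dorsal factor within the limit between the RA-DIFF libraries. It stood at 0.957 and 0.935 CPM in ESC and at 34.5 and 42.3 CPM in the WT-labelled and null-labelled RA-DIFF libraries. The levels of the RA-DIFF libraries were within 0.29 of each other on the log2 scale (interval 0.23 to 0.36), and the RA responses were 5.17 and 5.50. The serotonergic genes Fev, Slc6a4 and Tph2, of which none reached the expression limit, had 1, 23 and 18 counts in the WT-labelled RA-DIFF library and 81, 139 and 97 in the null-labelled one.

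The 4 cranial and sensory factors were called higher in RA-DIFF in WT-labelled cells, and all 4 were called lower in the null-labelled RA-DIFF library than in the WT-labelled one. Of all tested genes, 34.0% and 9.16% had these calls. Tlx1 was under 1 CPM elsewhere and passed the limit through the WT-labelled RA-DIFF library, so the numbers are not read against these shares. The 4 factors summed to 14.9 and 14.2 CPM in ESC, 53.0 CPM in the WT-labelled RA-DIFF library and 5.71 CPM in the null-labelled one. The median log2 ratio between the RA-DIFF libraries was -3.16.

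Phox2a, the paired-like factor of cranial motor and noradrenergic neurons, had 150 counts in wild-type ESC, 128 in Htt-null ESC, 480 in the WT-labelled RA-DIFF library and 23 in the null-labelled one. This was 1.73, 1.96, 4.28 and 0.234 CPM, with the lowest level in the null-labelled RA-DIFF library. The RA-DIFF libraries differed 18.3-fold, a log2 ratio of -4.20 (interval -4.87 to -3.59), and the RA log2 ratios were 1.31 and -3.07. Phox2a overlaps Inppl1, a gene of the opposite strand with 8692 to 18978 counts per library in these data. How reads of the overlap were assigned was not tested. Inppl1 itself had 16898 and 18978 counts in the RA-DIFF libraries.

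Pou4f1 and Pou4f2, POU factors of sensory neurons and retinal ganglion cells, were present in ESC already. Pou4f1 stood at 7.67, 8.29, 31.4 and 3.52 CPM and Pou4f2 at 4.92, 3.69, 13.8 and 1.53 CPM in wild-type ESC, Htt-null ESC and the WT-labelled and null-labelled RA-DIFF libraries. Both were highest in the WT-labelled RA-DIFF library and lowest in the null-labelled one. Their RA responses were 2.03 and 1.49 in WT-labelled cells and -1.23 and -1.27 in null-labelled cells. Between the RA-DIFF libraries they differed by -3.16 and -3.17, a gap of 0.02 between the relatives. Tlx1, the relative of Tlx3, stood at 0.554, 0.291, 3.48 and 0.416 CPM, and differed by -3.06 between the RA-DIFF libraries and by -0.93 between the ESC libraries (interval -1.78 to -0.13).

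**Figure D2:**
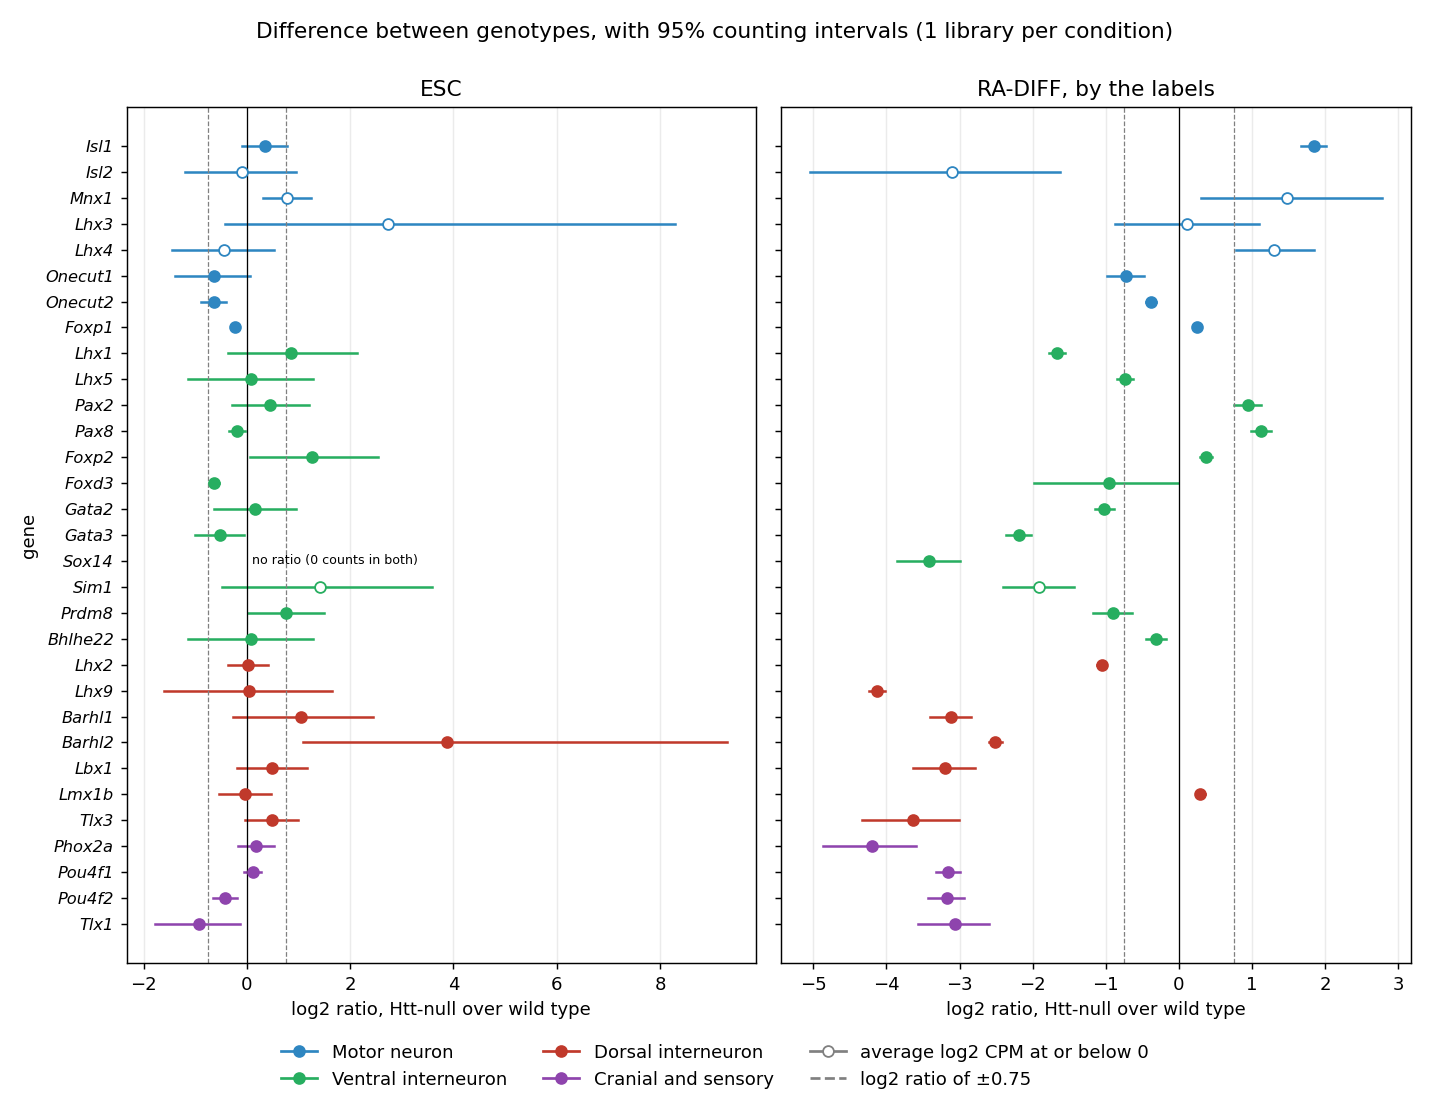
Genotype difference of each factor, as the log2 ratio of Htt-null to wild type, in ESC (left) and in RA-DIFF by the labels (right), with points for the ratio, lines for the 95% counting interval, filled points for genes above the expression limit and dashed lines at the limits of ±0.75; the horizontal scales differ. In RA-DIFF the dorsal and the cranial and sensory factors except Lmx1b lie between -1.05 and -4.20, while the motor neuron factors above the limit lie between -0.72 and 1.84.

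The calls in ESC rested on few counts. The 5 factors called higher in Htt-null ESC were Lhx1, Foxp2, Prdm8, Barhl1 and Barhl2, with 1 to 30 counts in wild-type ESC and 11 to 38 in Htt-null ESC. Barhl2 was the one whose counting interval lay past the limit, at 3.87 with 1.09 to 9.30, on 1 and 11 counts. The interval of Foxp2 ran from 0.07 to 2.54, that of Prdm8 from 0.02 to 1.49, and those of Lhx1 and Barhl1 included 0. For the 10 factors with fewer than 20 counts in both ESC libraries, a difference inside such wide intervals was not detectable at this depth. For the 6 factors with the most counts in wild-type ESC the ratios were -0.23 for Foxp1, -0.64 for Foxd3, -0.19 for Pax8, 0.11 for Pou4f1, -0.41 for Pou4f2 and -0.64 for Onecut2, all within the limit.

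**Figure D3:**
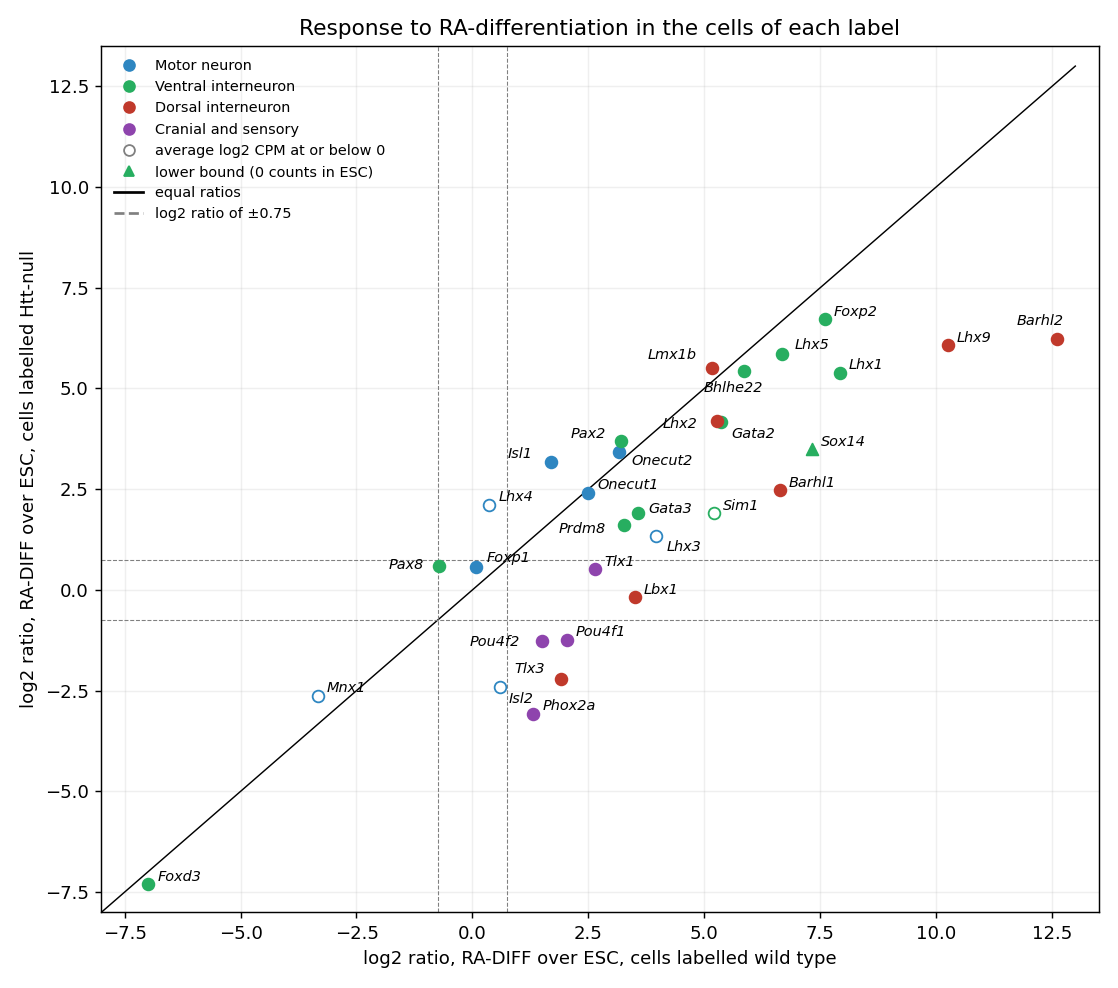
Log2 ratio of RA-DIFF over ESC for each factor in WT-labelled cells (horizontal) and in null-labelled cells (vertical), coloured by group, with open points under the expression limit, triangles for lower bounds, a solid line of equal ratios and dashed lines at the limits of ±0.75. Tlx3, Phox2a, Pou4f1 and Pou4f2 lie below the lower limit on the vertical axis and above the upper limit on the horizontal one. Isl1, Lmx1b, Pax2, Onecut2, Pax8, Foxp1, Lhx4 and Mnx1 lie above the line of equal ratios.

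The order of levels changed between the RA-DIFF libraries. Per kb of exon, Barhl2 was the most abundant factor in the WT-labelled library at 30.97 CPM per kb, followed by Lhx2 at 13.8, Lhx9 at 13.3, Lhx1 at 7.53 and Lmx1b at 7.07. In the null-labelled library the order was led by Lmx1b at 8.67 CPM per kb, Foxp1 at 7.80, Lhx2 at 6.65, Barhl2 at 5.44 and Lhx5 at 3.93. Isl1 took place 22 of 31 in the first library and place 6 in the second, and Lhx9 place 3 and place 15. In ESC the leading factors were Foxd3, at 15.1 and 9.68 CPM per kb in wild-type and Htt-null cells, and Foxp1, at 6.22 and 5.30. Neighbours in these orders have no replicate spread to be compared with, and Lhx2 and Lhx9 in the WT-labelled library lay within 1.04-fold.

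Promoters were read for 26 of the 31 factors from the RefSeq table of GRCm38.p6, in windows of 250 bases before to 50 bases after the start. Their median ratio of observed to expected CpG, the dinucleotide that is depleted in most of the genome but kept in CpG islands, was 0.79, against 0.384 over the 32851 windows of the table. It exceeded 0.6 in 18 of the 26, or 69.2%, against 35.8% of all windows. The GC content had a median of 65.8% against 52.7%. Lhx9 and Pax8 were the lowest, at 0.261 and 0.288, and the window of Lhx9 lies 6133 bases from the start in the deposited table. The windows of Gata3, Lhx4, Isl2 and Foxp1 also lie away from that start, by 11434, 9657, 2477 and 1728 bases, and those of Lmx1b, Pax2 and Prdm8 by 587, 293 and 109 bases. The 250 bases before the start are shown for the factor with the highest level per kb in RA-DIFF, Barhl2, for the factor with the largest difference between the RA-DIFF libraries, Phox2a, and for Isl1, which by the labels was the most raised of those called higher in the null-labelled RA-DIFF library. Capitals mark CpG.
Barhl2, chr5:106458167-106458416, minus strand: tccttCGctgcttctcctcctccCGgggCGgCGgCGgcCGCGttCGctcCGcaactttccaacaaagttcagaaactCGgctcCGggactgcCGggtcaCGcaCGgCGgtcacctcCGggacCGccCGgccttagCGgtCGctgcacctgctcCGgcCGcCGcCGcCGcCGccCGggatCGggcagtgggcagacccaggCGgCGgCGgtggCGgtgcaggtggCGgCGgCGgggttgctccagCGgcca
Phox2a, chr7:101818063-101818312, plus strand: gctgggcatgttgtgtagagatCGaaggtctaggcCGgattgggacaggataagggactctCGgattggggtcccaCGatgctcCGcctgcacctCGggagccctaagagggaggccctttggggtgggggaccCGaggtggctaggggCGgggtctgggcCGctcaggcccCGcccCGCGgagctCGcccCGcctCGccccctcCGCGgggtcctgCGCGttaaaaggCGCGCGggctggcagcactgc
Isl1, chr13:116309689-116309938, minus strand: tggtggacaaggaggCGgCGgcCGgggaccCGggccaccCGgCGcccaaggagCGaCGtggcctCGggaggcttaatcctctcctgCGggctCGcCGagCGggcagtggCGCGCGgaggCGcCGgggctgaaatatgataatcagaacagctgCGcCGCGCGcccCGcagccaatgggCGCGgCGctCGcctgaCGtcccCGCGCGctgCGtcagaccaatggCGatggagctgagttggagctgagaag
The 3 stretches hold 36, 22 and 33 CpG. The direct repeats of the retinoic acid receptor with a spacing of 5 bases were in none of the 26 windows and in 0.00913% and 0.0244% of all windows for the 2 half-sites searched, AGGTCA and AGTTCA. The E-box CAGCTG, which reads alike on both strands, was in 7 of the 26, or 26.9%, against 16.3% of all windows, and the E-box CAGATG was in 3, or 11.5%, against 17.2%. The homeodomain motifs TAATTA and ATTGAT were each in 1 window, or 3.85%, against 5.29% and 7.54%.

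A second list of 24 subtype factors held genes of the same classes that are no members of the 31. Of these, 15 were above the expression limit, 13 were called higher and 2 lower in RA-DIFF in WT-labelled cells, and 12 higher and 3 lower in null-labelled cells. Between the RA-DIFF libraries 1 was higher and 11 lower in the null-labelled one, with a median log2 ratio of -1.42. Evx2, a V0 factor, fell by 5.15 on the log2 scale, and the dI3 and dI5 factor Prrxl1, just under the expression limit, had 387 and 14 counts. The COE factors Ebf2 and Ebf3, which accompany neuronal differentiation in many classes, differed by -1.67 and -2.41, and En1, the V1 factor that shares its class with Foxp2, had a ratio of 0.42. The higher gene was Wt1, a dI6 factor that is also a kidney gene.

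Genes that carry out the subtype programmes were read in a list of 17 transmitter and effector genes, of which 10 were above the expression limit. Between the RA-DIFF libraries 1 was higher and 5 lower in the null-labelled one. The 1 higher was Prph, an intermediate filament gene of motor and sensory neurons, with 29 and 50 counts and a log2 ratio of 0.97 (interval 0.28 to 1.69). Prph was higher in ESC, at 14.5 and 18.1 CPM, and passed the expression limit there. Slc17a6, the vesicular glutamate transporter of most excitatory spinal neurons, had 0 counts in either ESC library, 3718 in the WT-labelled RA-DIFF library and 474 in the null-labelled one, a log2 ratio of -2.79. The glycine transporter Slc6a5 and the tyrosine hydroxylase gene Th differed by -2.94 and -2.96. The genes of GABA synthesis and loading lay within the limit, with -0.25 for Gad1, -0.71 for Gad2 and -0.51 for Slc32a1. The cholinergic genes that motor neurons use were under the expression limit, with 15 and 2 counts for Chat, 110 and 17 for Slc18a3 and 136 and 137 for Slc5a7 in the RA-DIFF libraries.

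**Figure D4:**
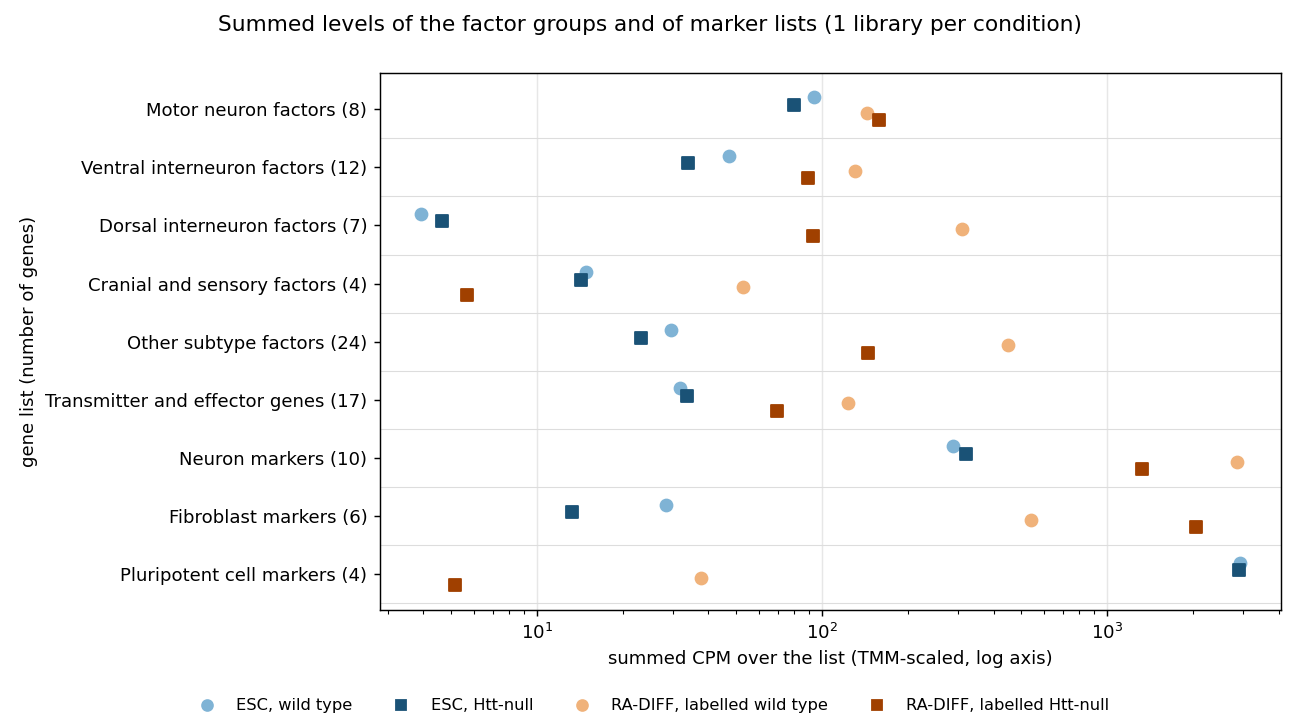
Summed level of each group of factors, of 2 further gene lists and of 3 marker lists in the 4 RNA-seq libraries, in TMM-scaled CPM on a log axis, with the number of genes in brackets; a sum is led by its most abundant genes. The dorsal factors sum to 311 and 93.3 CPM and the cranial and sensory factors to 53.0 and 5.71 CPM in the WT-labelled and null-labelled RA-DIFF libraries, beside 2857 and 1321 CPM for the neuron markers.

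Small RNA of the same 4 conditions, with 1 library each, holds miRNAs known from neurons of these classes. miR-218-5p is the miRNA of motor neurons, made from introns of Slit2 and Slit3, miR-9-5p tunes Foxp1 and Onecut1 in the developing cord, and the cluster of miR-183-5p, miR-96-5p and miR-182-5p is the one of sensory neurons and hair cells. Their mature sequences are shown because these miRNAs bear on named factors or groups. Capitals mark the seed, bases 2 to 8.
miR-218-5p: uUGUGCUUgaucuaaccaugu
miR-9-5p: uCUUUGGUuaucuagcuguauga
miR-183-5p: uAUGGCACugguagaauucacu
miR-96-5p: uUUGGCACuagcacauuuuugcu
miR-182-5p: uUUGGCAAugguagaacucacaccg
No 2 of these miRNAs share a seed. miR-9-5p had 8956 counts in wild-type ESC, 9546 in Htt-null ESC, 201355 in the WT-labelled RA-DIFF library and 298424 in the null-labelled one. It was higher in RA-DIFF by 4.66 and 5.82 on the log2 scale, and by 3.50 and 3.95 when scaled by library size alone. Between the RA-DIFF libraries it was higher in the null-labelled one, by 1.13 or by 0.65 with library size alone.

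The cluster of miR-183-5p, miR-96-5p and miR-182-5p was already abundant in ESC and lower in RA-DIFF. Its fall is therefore not read as a change in sensory neurons. miR-183-5p had 1477722 and 1363761 counts in ESC and 13362 and 7247 in RA-DIFF, log2 ratios of -6.62 and -6.70, or of -7.78 and -8.58 with library size alone. The RA log2 ratios with TMM were -5.77 and -4.85 for miR-96-5p and -3.53 and -2.50 for miR-182-5p. miR-218-5p had 833, 2000, 4172 and 3431 counts, and its direction rested on the scaling: in null-labelled cells the RA ratio was 1.64 with TMM and -0.24 with library size alone, and between the RA-DIFF libraries it was 0.28 and -0.20. In WT-labelled cells it was higher in RA-DIFF under both, by 2.50 and 1.33, and it was higher in Htt-null than in wild-type ESC by 1.14 and 1.37. miR-124-5p, an arm of the general neuronal miRNA miR-124, had 275, 520, 4842 and 3508 counts. The other arm, miR-124-3p, had 1576, 1885, 2417 and 1844, and its RA log2 ratios were 0.79 and 0.83 with TMM but -0.38 and -1.05 with library size alone. Whether the small RNA libraries of RA-DIFF carry the same labels as the RNA-seq libraries was not tested.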

How the data were processed

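Poly-A-plus RNA was sequenced as strand-specific paired-end libraries and small RNA as single-end libraries, 8 libraries in all with 1 per condition. By the submitters' processing notes and the paper's methods, the authors aligned reads to GRCm38 with TopHat2 2.0.14, counted them on GENCODE genes with HTSeq 0.6.1 and deposited raw counts. Options not named there, the strand option among them, were left at their defaults by that account. For small RNA the authors trimmed adapters with cutadapt 1.3, mapped to miRBase with BWA 0.7.5a-r418 and deposited raw counts per mature miRNA. The paper's supplementary values per condition matched the RA-DIFF columns with exchanged labels, and the labels of the deposited table were kept.

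TMM factors came from edgeR 4.0.16 in R 4.3.3; intervals came from scipy 1.17.1, tables from pandas 2.3.3 with numpy 2.4.6, and figures from matplotlib 3.10.9 under Python 3.11.15. Ratios are of TMM-scaled CPM without a prior count, a count of 0 being set to 3 counts, and intervals are exact conditional binomial intervals at the 95% level. With 1 library per condition no dispersion could be estimated, and no quasi-likelihood test was fitted. The exact test of edgeR at assumed dispersions, DESeq2 1.42.0 size factors, library size alone, a prior count of 2, no expression limit and exchanged RA-DIFF labels were alternatives. All 31 factors are reported, along with lists of related genes and markers. The factors, lists and limits were chosen with earlier results of these data known. The calling step was tested on simulated data. Levels per kb used exon lengths of GENCODE vM21 on GRCm38. Promoters and miRNA sequences are from RefSeq. Promoters of 5 factors, miR-124 sequences and protein sequences were not analysed here. Values of some genes of the lists are not reported here.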

Additional observations from a re-analysis of the deposited data

Results flagged for a closer look

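In 4 factors the Htt-null library was higher in ESC and lower in RA-DIFF by the labels, with both ratios past the limit. With the RA-DIFF labels exchanged, the Htt-null library is higher at both stages in these 4. The log2 ratio in RA-DIFF minus that in ESC was -2.53 for Lhx1, -1.66 for Prdm8, -4.16 for Barhl1 and -6.38 for Barhl2, whose ESC ratios rest on 1 to 30 counts in wild-type ESC. All 4 were under 1 CPM in both ESC libraries and passed the expression limit through RA-DIFF. The ESC counting intervals of Lhx1, from -0.36 to 2.13, and Barhl1, from -0.26 to 2.44, include 0, so the direction in ESC is not established for either. The ESC ratio of Prdm8 was 0.75 (interval 0.02 to 1.49), and with DESeq2 size factors it was 0.72, no longer past the limit. In 4 others RA-DIFF was higher than ESC in WT-labelled cells and lower in null-labelled cells. The RA log2 ratio in null-labelled cells minus that in WT-labelled cells was -4.11 for Tlx3, -4.38 for Phox2a, -3.27 for Pou4f1 and -2.76 for Pou4f2. With the labels exchanged, the directions in the cells of the 2 genotypes are swapped. With 1 library per condition these differences were not tested.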

How the results depend on the processing

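No paired analysis was possible because each condition has 1 library, and for the same reason no library could be left out. Scaling by library size alone or by DESeq2 size factors moved the median of all genes by between -0.0716 and 0.0560 on the log2 scale. The 5 factors called higher in Htt-null ESC became 4 with DESeq2 size factors, where Prdm8 lost its call, 3 with a prior count of 2, 8 without the expression limit, 2 in the exact test at a dispersion of 0.01, and 1 at a dispersion of 0.1 or with the counting interval past the limit. The 1 called lower became 0 at a dispersion of 0.1 and 0 by the counting interval. In RA-DIFF the 3 factors higher in the null-labelled library became 5 without the expression limit and 1, Isl1, at a dispersion of 0.1, where Pax2 and Pax8 lost their calls, and the 16 lower ranged from 12 to 18 over the alternatives that kept the labels. The 12 were at a dispersion of 0.1, where Foxd3, Gata2, Prdm8 and Lhx2 lost their calls. With RA in WT-labelled cells the 1 factor called lower became 2 with DESeq2 size factors and 2 without the expression limit, and in null-labelled cells the 5 called lower became 3 at a dispersion of 0.1. The causes were not tested.

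Exchanging the 2 RA-DIFF labels turned the genotype comparison in RA-DIFF into 16 factors higher and 3 lower, by construction. With RA, 17 were then higher and 5 lower in wild-type cells, and 23 higher and 1 lower in Htt-null cells. Of the RA log2 ratios of called factors, those that changed sign were, in wild-type cells, -1.72 for Tlx3, -2.89 for Phox2a, -1.12 for Pou4f1, -1.68 for Pou4f2 and -0.41 for Tlx1, and in Htt-null cells 1.43 for Tlx3, 1.13 for Phox2a, 1.92 for Pou4f1 and 1.91 for Pou4f2. Among ratios not called, those of Isl2 and Pax8 changed sign in the cells of both genotypes and that of Lbx1 in Htt-null cells. In ESC, 10 factors had under 20 counts in both ESC libraries.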
